A study of Mus musculus with 24 samples.

Results

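Krt5, Krt14, Krt15, Krt17 and Trp63 are the 4 keratin genes of the basal epithelial layer and the gene of p63, the transcription factor that marks the same layer. They were taken by gene symbol from the count table of each library, so these 5 of the 47643 genes listed were followed in all 24 libraries, and all 5 passed the filter on low counts that left 10563 genes for testing. The libraries came from organoids grown from salivary gland stem/progenitor cells of C57BL/6 mice, taken 14 or 90 days after irradiation (IR) or sham irradiation of the animals. An organoid here is a small epithelial structure that grows from dissociated gland cells in Matrigel, a basement membrane gel, and was sampled at passage 1 or after replating at passage 2. Messenger RNA was read near its 3′ end with QuantSeq, a method that counts about 1 read per transcript, so the levels below were not divided by transcript length.

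The 8 groups hold 3 libraries each and cross the treatment (sham or IR), the day after treatment (14 or 90) and the passage (1 or 2). All groups share the strain and the growth medium, which contained EGF, FGF2, insulin, dexamethasone and Y-27632, an inhibitor of the kinase ROCK. No label names a transgene or a deleted gene, and neither the radiation dose nor the age of the animals is stated here, because no label gives them. The labels do not say whether the 3 libraries of a group came from separate animals or cultures, so each p-value speaks of library-to-library spread alone, part or all of which may be technical. Passage 2 organoids may descend from the passage 1 organoids measured here, and comparisons between passages are therefore not known to be independent.

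Keratins are the intermediate filament proteins of epithelial cells, and a filament forms only when a type II keratin such as Krt5 pairs with a type I keratin such as Krt14, Krt15 or Krt17. In stratified and ductal epithelia this set marks the basal cells that sit on the basement membrane, and in salivary glands basal duct cells and myoepithelial cells express Krt5, Krt14 and p63. p63, above all its shorter ΔN form, keeps basal cells in a proliferative state and is known to bind regulatory regions of KRT5 and KRT14 in human keratinocytes. Reads at the 3′ end cannot separate the TA and ΔN forms of Trp63.

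The libraries held 1151608 to 3189466 counts on genes (median 2091528.5). A single ribosomal RNA gene, Gm42418, took 11.8 to 29.0% of them, and in 3 libraries this share lay over 7 percentage points from both others of the group: the third IR library of day 14, passage 2 (17.2%), the first sham library of day 90, passage 1 (28.6%) and the first IR library of day 90, passage 2 (13.5%). The 6 epithelial markers summed to 1758 to 3450 CPM (counts scaled by library size) in each library, and the 6 luminal duct markers to 600.3 to 3532 CPM. Markers of the other cell types a gland can hold were low in every library. The 7 mesenchymal markers summed to at most 3.85 CPM with Col3a1 and Pdgfrb at 0, the 5 endothelial markers to at most 2.06 CPM, and the 7 leukocyte markers to between 0.41 and 51.9 CPM. The 7 myoepithelial markers summed to 1.99 to 36.5 CPM with Actg2 at 0, and the 8 acinar markers to 14.8 to 89.1 CPM.

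Of all keratin counts in the 24 libraries, Krt14 held 39.3%, Krt5 22.1%, Krt17 5.55% and Krt15 1.02%. Krt14 was the 10th and Krt5 the 22nd most abundant of the tested genes, Krt17 the 195th, Trp63 the 1973rd and Krt15 the 2056th. Per library the CPM ran from 868 to 5355 for Krt14, from 392 to 3363 for Krt5 and from 213 to 667 for Krt17. Trp63 ran from 26.9 to 168 CPM, a 6.23-fold range. Krt15 had by far the widest range of the 5, from 0.418 CPM (1 count) to 277 CPM.

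**Figure D1:**
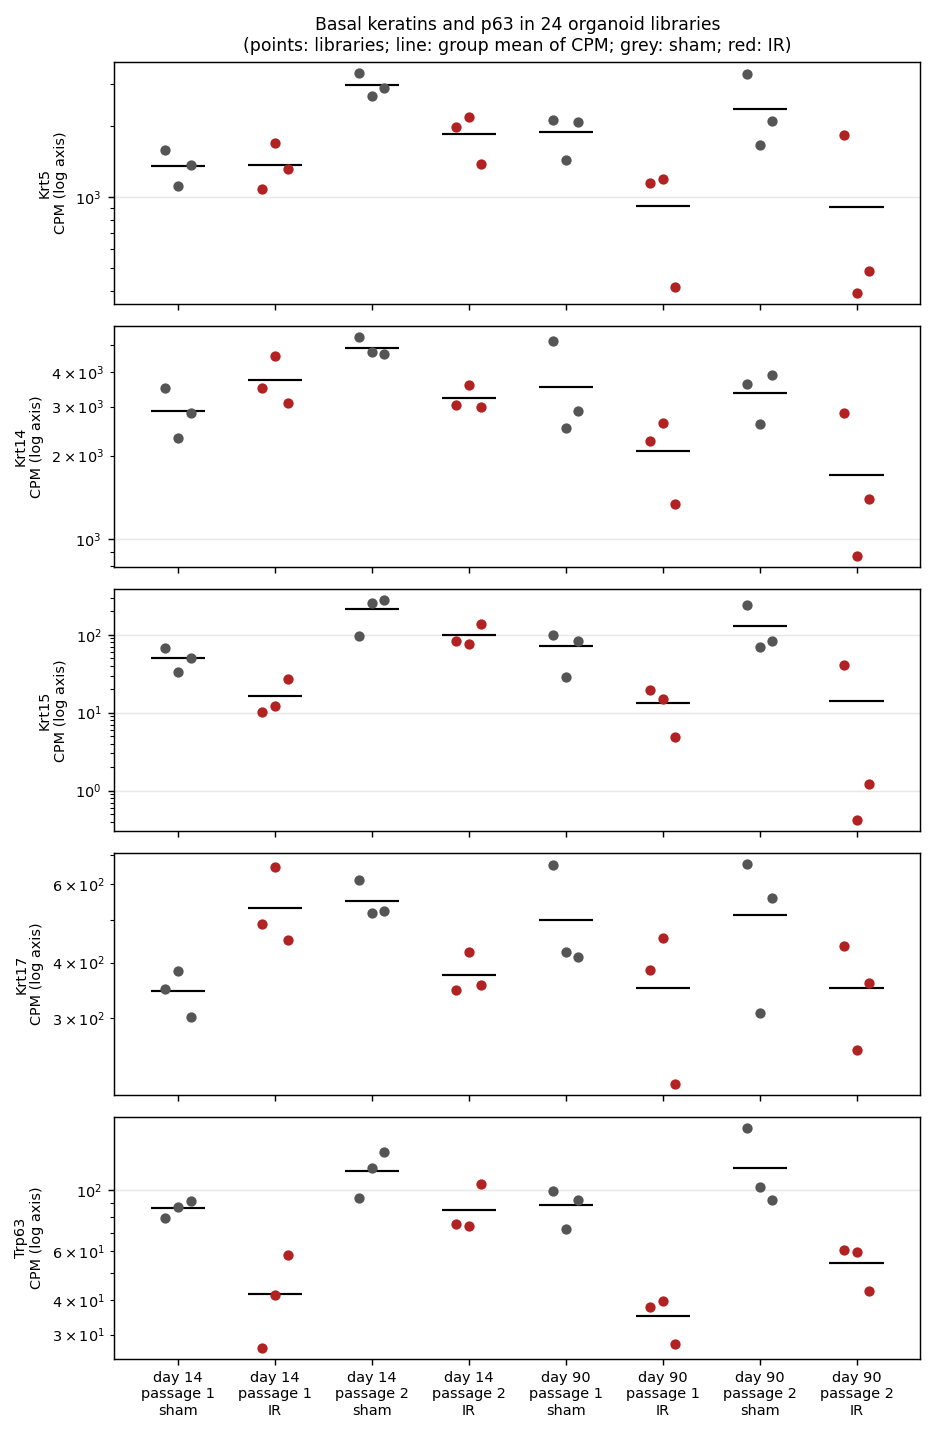
Level of each of the 5 genes in each library, in CPM on a log axis, by group; points are libraries, lines are group means, grey is sham and red is IR. Trp63 and Krt15 sit lower in the IR libraries of most day and passage pairs, and in the day 90, passage 2 IR group 1 library lies apart from the other 2 for Krt5, Krt14 and Krt15.

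Irradiated organoids carried less Trp63 and less Krt15 than sham organoids. Averaged over both days and both passages, Trp63 fell by 0.98 on the log2 scale (SE 0.13, a 1.98-fold lower level; edgeR adjusted p = 0.000114), Krt15 fell by 2.02 (SE 0.39, 4.07-fold lower; adjusted p = 0.00230) and Krt5 fell by 0.78 (SE 0.22, 1.71-fold lower; adjusted p = 0.0230). Krt14, at -0.50 (SE 0.17, adjusted p = 0.0560), and Krt17, at -0.25 (SE 0.14, adjusted p = 0.270), did not pass. Krt14 passed in this mean with total-count scaling (edgeR adjusted p = 0.0379), with DESeq2 (adjusted p = 0.0271), with no filter on low counts, and with any 1 of 4 libraries left out. So 3 of the 5 passed, all lower, where 11% of all tested genes passed in either direction and 4.91% passed as lower. The median of the 5 was -0.78, against 0.00 over all tested genes. In bulk organoids, fewer basal cells and less of these RNAs per basal cell cannot be told apart.

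By day and passage, the effect passed only at day 90 and passage 2. There 2 of the 5 passed, Trp63 and Krt15, both lower, where 4.92% of tested genes passed in either direction and 1.95% as lower. The count was 0 of 5 at day 14 in passage 1 (background 0.341%), 0 of 5 at day 14 in passage 2 (background 0.0189%) and 0 of 5 at day 90 in passage 1 (background 0.0473%). Before adjustment Trp63 ranked 101st at day 14 and 8th at day 90 among the 10563 tested genes in passage 1, with adjusted p of 0.0854 and 0.0553. Whether the irradiation effect differed between days or passages was tested directly, and no member passed (background 0.0189% and 0.00947% for the day in passages 1 and 2, and 0% for the passage at both days), so a pass in one stratum does not show that it differs from the others.

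Complete separation of the 3 IR from the 3 sham libraries is a looser description. At day 14 and passage 1 it held for Krt15 and Trp63, both lower, and for Krt17, higher (8.4% of tested genes separated as lower and 8.84% as higher). In passage 2 of that day, Krt5, Krt14 and Krt17 were lower in all 3 IR libraries (5.49% of tested genes). Krt5, Krt15 and Trp63 were lower in all 3 at day 90 and passage 1 (10.3%), and Krt15 and Trp63 at day 90 and passage 2 (9.64%). Krt15 and Trp63 thus separated in 3 of the 4 strata and overlapped at day 14, passage 2.

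**Figure D2:**
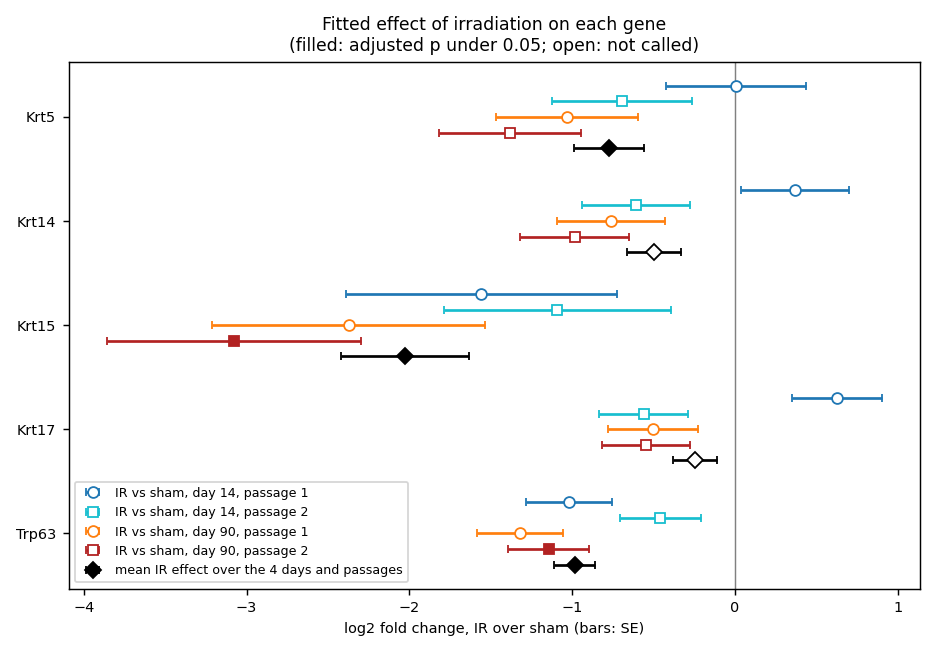
Fitted log2 fold change of IR over sham for each gene in each day and passage and as the mean of the 4, with bars of 1 SE; filled symbols passed at an adjusted p under 0.05. All effects of Trp63 and Krt15 lie below 0, while Krt14 and Krt17 lie above 0 at day 14, passage 1 and below 0 elsewhere.

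Trp63 encodes p63, the regulator of the group. In passage 1 at day 14 the sham libraries held 79.0, 86.7 and 91.4 CPM and the IR libraries 26.9, 41.6 and 58.1 CPM. In passage 1 at day 90 the values were 99.3, 72.5 and 91.8 CPM in sham and 37.6, 39.7 and 27.8 CPM in IR. Every IR library of passage 1 was thus below every sham library of its day, with log2 differences of -1.02 (SE 0.26) at day 14 and -1.32 (SE 0.26) at day 90. In passage 2 at day 14 the sham libraries held 93.2, 120.5 and 137 CPM and the IR libraries 75.1, 74.3 and 105 CPM. The third IR library lay above the lowest sham library, and the difference was -0.46 (SE 0.25, edgeR adjusted p = 0.779). In passage 2 at day 90 the sham libraries held 168, 102 and 91.6 CPM and the IR libraries 60.7, 59.7 and 43.0 CPM. The 3 IR libraries stood close together and below all sham libraries, and Trp63 fell by 1.14 (SE 0.25, 2.21-fold lower, adjusted p = 0.00939). Without the first sham library, the highest, the difference was -0.84 (adjusted p = 0.0753), and without the third IR library, the lowest, it was -1.0 (adjusted p = 0.0798).

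Ordered by group mean, Trp63 was highest in the day 90, passage 2 sham group (121 ± 41.2 CPM, SD, n = 3) and the day 14, passage 2 sham group (117 ± 22.3 CPM). A gap wider than the larger SD followed, though libraries overlapped across it. Next came the day 90, passage 1 sham (87.9 ± 13.8), day 14, passage 1 sham (85.7 ± 6.25) and day 14, passage 2 IR groups (84.8 ± 17.5). These did not differ among themselves beyond their spread. A gap wider than the larger SD, and with no overlap of libraries, separated those 5 groups from the other 3, which were all irradiated. These held 54.5 ± 9.97 CPM at day 90, passage 2, 42.2 ± 15.6 at day 14, passage 1 and 35.0 ± 6.32 at day 90, passage 1, neighbours that did not differ beyond their spread.

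Krt5 is the type II keratin of the basal layer and a partner of the 3 type I keratins. In passage 1 at day 14 the sham libraries held 1587, 1116 and 1362 CPM and the IR libraries 1082, 1687 and 1316 CPM, which overlapped throughout (log2 difference 0.01, SE 0.43). In passage 2 at day 14 the values were 3363, 2687 and 2894 CPM in sham and 1970, 2185 and 1377 CPM in IR. No IR library reached the lowest sham library there, yet the difference of -0.69 (SE 0.43) did not pass. Day 90 sham organoids of passage 1 held 2116, 1426 and 2087 CPM and IR 1145, 1193 and 415 CPM. The groups did not overlap and the third IR library was the lowest, with a difference of -1.03 (SE 0.43, edgeR adjusted p = 0.310). Day 90 sham organoids of passage 2 held 3319, 1657 and 2104 CPM and IR 1836, 392 and 483 CPM. The first IR library lay inside the sham range and the other 2 were well below it, so that the difference of -1.38 (SE 0.44) had an adjusted p of 0.0705.

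That first IR library of day 90, passage 2 also differed in its ribosomal share: Gm42418 took 13.5% of its counts, against 24.3 and 23% in the other 2 IR libraries and 13.1 to 15.5% in the 3 sham libraries. Without this library the differences were -2.43 for Krt5 (edgeR adjusted p = 0.000314) and -1.57 for Krt14 (adjusted p = 0.00283), and 4 of the 5 genes passed. With all 3 libraries of a deviating share left out together, a choice made after seeing the data, 4 of the 5 passed at day 90, passage 2 and 4 in the mean effect. Of all genes, 520 passed at day 90, passage 2 in the main fit. With 1 library left out this was 137 to 1194, and over the other settings 85 to 1461. In the mean effect 1162 genes passed, and 532 to 1894 over the other settings. With the Gm42418 share as a covariate over all 24 libraries, the mean effect on Krt5 was -0.74 with an edgeR adjusted p of 0.0584, above the threshold of 0.05. Trp63 did not stand apart in that first IR library, at 60.7 CPM beside 59.7 and 43.0 CPM.

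The order of Krt5 by group mean ran from 2981 ± 346 CPM (SD, n = 3) in day 14, passage 2 sham down to 904 ± 808 CPM in day 90, passage 2 IR. The 2 groups of day 90 IR, at 904 and 918 CPM, were the lowest. Libraries of each neighbouring pair of groups overlapped along the whole order, and the gap exceeded the larger SD at 2 steps, from day 14, passage 2 IR to day 14, passage 1 IR and from day 14, passage 1 sham to day 90, passage 1 IR. Highest and lowest group mean differed by 1.72 on the log2 scale.

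The 250 bases before the Krt5 start site are shown because p63 is known to act on this gene's regulatory regions. Krt5 was also the type II keratin of the 5 genes and passed in the mean effect. They are the RefSeq promoter on GRCm38.p6, chr15:101712906-101713155, minus strand, written 5′ to 3′ with the match to a p53-family half-site in capitals. 2 of the 5 genes have an entry in the promoter table, and the entry of Krt14 begins at an internal start, so it is not printed.
Krt5 promoter: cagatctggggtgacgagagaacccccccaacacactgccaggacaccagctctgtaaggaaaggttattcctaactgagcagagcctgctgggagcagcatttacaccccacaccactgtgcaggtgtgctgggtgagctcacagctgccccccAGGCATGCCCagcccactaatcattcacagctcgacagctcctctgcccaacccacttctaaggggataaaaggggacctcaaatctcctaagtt
The half-site, whose first base is at -95 from the start, is the only match in the window, and 7.13% of 32851 promoter windows of this length hold such a match on either strand. AP-1 (TGANTCA, in 6.75% of windows), AP-2 (GCCNNNGGC, 13.7%) and TATAAA (12.4%) had no match, which says only that these letters are not in this window. A match is a run of letters and not a measured binding site.

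Krt14 is the main type I partner of Krt5 and the most abundant keratin here. Day 14 sham organoids of passage 1 held 3485, 2313 and 2842 CPM and IR 3509, 4574 and 3085 CPM, overlapping ranges with a log2 difference of 0.37 (SE 0.33). Day 14 sham organoids of passage 2 held 5355, 4697 and 4618 CPM and IR 3048, 3595 and 2985 CPM. The 3 sham libraries there included the highest level of the series, and no IR library overlapped them (-0.61, SE 0.33, edgeR adjusted p = 0.780). For day 90 and passage 1 the sham libraries held 5167, 2506 and 2882 CPM and IR 2258, 2622 and 1341 CPM. The high first sham library, whose Gm42418 share of 28.6% was above the 15.9 and 11.8% of its group, widened the spread, and the second IR library lay above the lowest sham library. For day 90 and passage 2 the sham libraries held 3620, 2590 and 3883 CPM and IR 2832, 868 and 1396 CPM, with the first IR library inside the sham range (-0.99, SE 0.33, adjusted p = 0.0965). That difference passed with DESeq2, at -1.01 (adjusted p = 0.0453).

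By group mean Krt14 was highest in day 14, passage 2 sham, at 4890 ± 405 CPM (SD, n = 3), which did not overlap the next group, day 14, passage 1 IR, at 3723 ± 767 CPM. The next 5 groups, from 3723 down to 2880 CPM, did not differ from their neighbours beyond their spread. After a gap wider than the larger SD, across which libraries overlapped, both day 90 IR groups were last, at 2074 ± 660 and 1699 ± 1017 CPM. Krt14 and Krt17 counts are somewhat uncertain because 43 of the 451 windows of 50 bases in the last 500 bases of each transcript also occur in Krt16 or in each other, and the setting of the authors' counting for such reads is not stated. Krt5, Krt15 and Trp63 shared 0 such windows. Krt5 has an annotated gene on the other strand (Gm44323), and Trp63 has one on its own strand (Gm27005) and one on the other (Gm24928). Reads of Gm44323 and Gm24928 could not be told apart from theirs without the strand setting, and those of Gm27005 could not be with it either.

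Krt15 is a type I keratin of the basal layer that, in mouse hair follicles and oesophagus, marks basal stem or progenitor cells. At day 14 and passage 1 sham held 66.8, 33.2 and 49.8 CPM and IR 10.1, 12.3 and 26.7 CPM, without overlap (log2 difference -1.56, SE 0.83, edgeR adjusted p = 0.517). At day 14 and passage 2 sham held 97.2, 259 and 277 CPM and IR 82.6, 77 and 136 CPM, where the first sham library lay among the IR libraries (-1.09, SE 0.70). At day 90 and passage 1 sham held 100.4, 28.5 and 84.3 CPM and IR 19.6, 15.2 and 4.87 CPM. All IR libraries were below all sham libraries, the lowest with 7 counts, and the difference was -2.37 (SE 0.84, adjusted p = 0.229). At day 90 and passage 2 sham held 239, 70.5 and 82.3 CPM and IR 41.4, 0.418 and 1.22 CPM. The first IR library had 139 counts of Krt15, while the second had 1 count and the third 3 counts. Krt15 fell by 3.08 there (SE 0.78, 8.44-fold lower, adjusted p = 0.0221). Without the first sham library the difference was -2.32 (adjusted p = 0.120), without the second IR library -2.56 (adjusted p = 0.111) and without the third -2.57 (adjusted p = 0.126). Without the first IR library it was -7.21 (adjusted p = 0.000100), a value that rests on the 1 and 3 counts of the other 2.

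The libraries used for the estimate of spread also mattered. Fitted on the 6 libraries of day 90, passage 2 alone, Krt15 was at -3.10 (SE 1.03, edgeR adjusted p = 0.202) and Trp63 at -1.16 (SE 0.26, adjusted p = 0.0780), so neither passed. The mean effect over the strata passed for Krt15 and Trp63 in every alternative run, with adjusted p up to 0.00683 and 0.000767. Its size for Krt15 depended on 1 library: without the first IR library of day 90, passage 2 it was -3.05 in place of -2.02.

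Krt15 group means ran over the widest range of the 5 genes, 4.0 on the log2 scale. The highest were day 14, passage 2 sham (211 ± 99.2 CPM, SD, n = 3), day 90, passage 2 sham (131 ± 94.1) and day 14, passage 2 IR (98.6 ± 32.7), all of passage 2, followed by the sham groups of passage 1 at day 90 (71.1 ± 37.7) and day 14 (49.9 ± 16.8). A gap wider than the larger SD then led to the 3 remaining groups, all irradiated, at 16.4 ± 9.03, 14.3 ± 23.4 and 13.2 ± 7.56 CPM, although their highest library (41.4 CPM) lay above the lowest of passage 1 sham (28.5 CPM). By their means, the same 5 groups as for Trp63 stood above the same 3.

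Krt17 is a type I keratin that is induced in wounded or stressed epidermis and also marks basal cells of glands. Its sham libraries of day 14, passage 1 held 348, 384 and 301 CPM and IR 490, 657 and 451 CPM, so every IR library was higher (log2 difference 0.63, SE 0.28, edgeR adjusted p = 0.405). Its sham libraries of day 14, passage 2 held 614, 518 and 524 CPM and IR 346, 421 and 355 CPM, so every IR library was lower (-0.56, SE 0.27, adjusted p = 0.750). The difference between those effects was -1.19 (SE 0.39, unadjusted p = 0.00577) and did not pass after adjustment (adjusted p = 0.488). At day 90, sham held 665, 421 and 411 CPM and IR 386, 455 and 213 CPM in passage 1, which overlapped. In passage 2 sham held 667, 308 and 558 CPM and IR 435, 254 and 360 CPM, which overlapped too, with differences of -0.50 (SE 0.27) and -0.55 (SE 0.27). The group means of Krt17 spanned only 0.68 on the log2 scale, from 552 ± 53.7 CPM (SD, n = 3) in day 14, passage 2 sham to 344 ± 41.5 CPM in day 14, passage 1 sham, and no neighbouring pair in their order differed beyond its spread.

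Between passages no member passed in any of the 4 comparisons of passage 2 with passage 1 (background 1.18% in sham at day 14, 1.36% in sham at day 90, 1.38% in IR at day 14 and 0% in IR at day 90). The sham groups of day 14 came closest as a set. All 5 genes were higher in each passage 2 library than in each passage 1 library, where 8.3% of tested genes separated that way, and the log2 differences were 2.09 (SE 0.73) for Krt15, 1.14 (SE 0.43) for Krt5, 0.76 (SE 0.33) for Krt14, 0.68 (SE 0.28) for Krt17 and 0.45 (SE 0.25) for Trp63. In the same comparison the 6 luminal duct markers summed to 1881 to 2180 CPM in passage 1 and 600.3 to 779 CPM in passage 2. Of the 5 tested, 4 fell, Krt8, Krt18, Krt7 and Wfdc2, beside 102 of all 10563 tested genes. The 7 myoepithelial markers summed to 24.4 to 36.5 and 14.2 to 17.7 CPM. Of the luminal markers 3 also fell from passage 1 to 2 in sham at day 90 and 3 in IR at day 14. Of all tested genes, 97 and 104 fell there. The part of the luminal markers in these differences was not tested. In irradiated organoids of day 14, Krt15 and Trp63 were higher in each passage 2 library (7.86% of tested genes) and Krt17 was lower in each (9.39%). Trp63 was at 1.01 (SE 0.26, edgeR adjusted p = 0.0542) and Krt15 at 2.56 (SE 0.81, adjusted p = 0.128). At day 90, Trp63 in IR was at 0.63 (SE 0.27), again higher in each passage 2 library (7.91%), and the 4 keratins overlapped in both treatments.

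Between days no member passed either (background 0% and 0.426% in sham at passages 1 and 2, and 0.17% and 0.435% in IR). In sham organoids the differences of day 90 over day 14 lay between -0.69 and 0.53 over both passages. Krt17 in passage 1 was higher in each day 90 library (8.79% of tested genes), and Krt14 in passage 2 was lower in each (11.3%). In irradiated organoids of passage 2, Krt14, Krt15 and Trp63 were lower in each day 90 library (7.09%), at -0.92 (SE 0.33), -2.68 (SE 0.78, edgeR adjusted p = 0.117) and -0.64 (SE 0.25). Without the first IR library of day 90, Krt5, Krt14 and Krt15 passed in that comparison, at -2.07, -1.5 and -6.82, where the last value rests on 1 and 3 counts. With 1 library left out, 0 to 372 of all genes passed in that comparison, against 46 in the full fit. Krt14 in passage 1 of IR was also lower in each day 90 library (6.72%), at -0.84 (SE 0.33). Comparisons that use the same group share its libraries, so these values are given side by side only.

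The makeup of the keratin pool was compared through ratios of counts within a library, which do not depend on library size. Each share or ratio moves with both of its parts, so a lower value need not mean less of the first gene. The 4 basal keratins together made up 44.5 to 77.5% of all keratin counts per library, the lowest being a day 90, passage 1 IR library. Krt5 held 20.7 ± 0.86% (SD, n = 3) of keratin counts in day 14, passage 1 sham and 14.6 ± 3.13% in its IR group, without overlap. The level of Krt5 itself differed there by 0.01 on the log2 scale (SE 0.43). In passage 2 of that day its share was 25.2 ± 2.16% in sham and 25 ± 4.10% in IR. At day 90 its share was 22.6 ± 5.0% in sham and 15.6 ± 5.43% in IR in passage 1, and 24.1 ± 2.85% and 17.9 ± 7.80% in passage 2. The treatments overlapped in those 3 strata. The mean ratio of Krt15 to Krt14 was lower in IR than in sham in all 4 strata. The log2 ratio was -5.88 ± 0.21 in sham and -7.91 ± 0.93 in IR at day 14, passage 1, and -5.74 ± 0.68 and -7.41 ± 0.59 at day 90, passage 1. It was -4.67 ± 0.96 and -5.06 ± 0.56 at day 14, passage 2, and -4.89 ± 0.86 and -8.82 ± 2.38 at day 90, passage 2. Only the day 14, passage 2 groups overlapped, so the counts of Krt15 and Krt14 did not keep 1 ratio across treatments.

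The other ratios were closer. Krt5 over Krt14 was -1.08 ± 0.05 in sham and -1.46 ± 0.23 in IR at day 14, passage 1, with no overlap, and overlapped between treatments in the other 3 strata. Krt17 over Krt14 stayed between -3.32 and -2.44 in all libraries but 2, the second and the third IR library of day 90, passage 2, which were at the top of the series with -1.77 as the highest. Trp63 over Krt14 in passage 1 was -6.50 ± 0.68 in IR against -5.05 ± 0.37 in sham at day 14, without overlap, and -5.84 ± 0.24 against -5.26 ± 0.39 at day 90, with overlap. In passage 2 the treatments overlapped at both days, at -5.25 ± 0.39 against -5.40 ± 0.40 at day 14 and at -4.80 ± 0.86 against -4.83 ± 0.51 at day 90. No test was run on the ratios, and the shared windows named above touch those that hold Krt14 or Krt17.

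**Figure D3:**
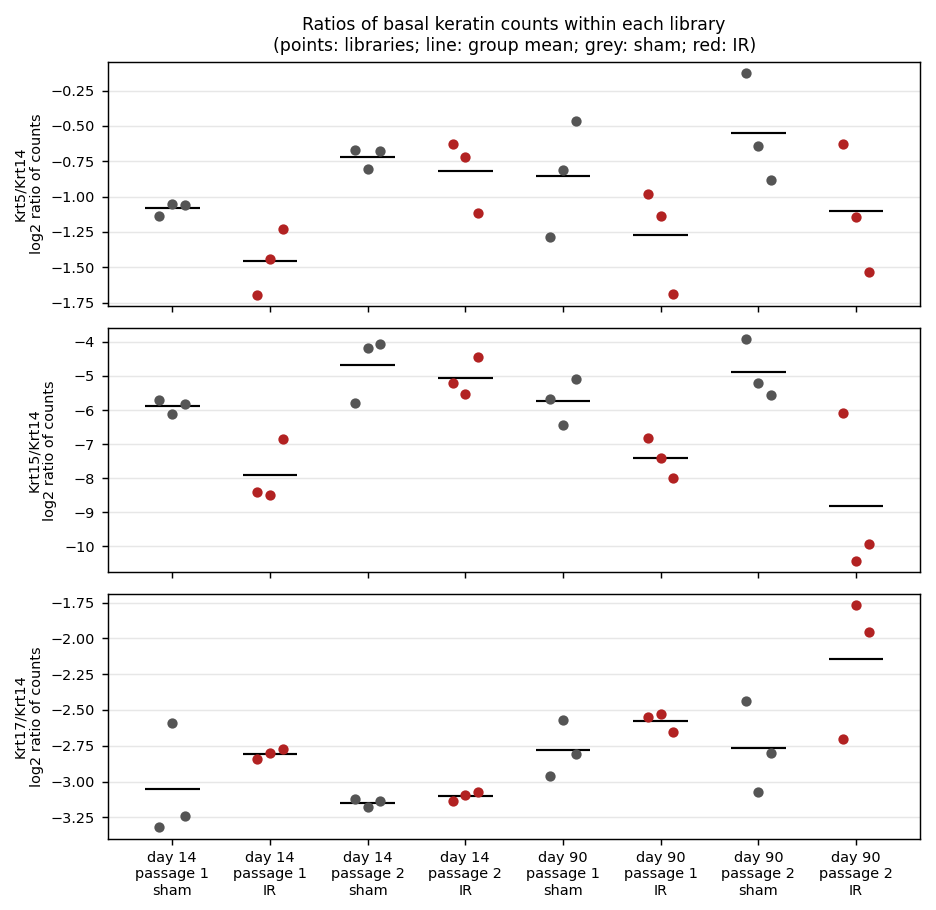
Log2 ratio of counts of Krt5, Krt15 and Krt17 to Krt14 within each library, by group; points are libraries, lines are group means, grey is sham and red is IR. Krt15 over Krt14 lies lower in IR at day 14, passage 1 and at day 90 in both passages, and Krt17 over Krt14 is highest in 2 IR libraries of day 90, passage 2.

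Libraries of the same group also varied together in these genes. After the group mean was taken from each log2 CPM, 6 of the 10 pairs of members were correlated over the 24 libraries by Pearson's r and 5 by Spearman's rho. The p came from 100000 permutations within groups, with Benjamini-Hochberg adjustment over the 10 pairs. How many pairs of other genes would pass in the same way was not measured, so the count cannot show a link particular to these genes. Genes outside the 5 reached a higher r within groups, such as Dbi with Krt5 (0.93) and Atp5j2 with Krt14 (0.92). The partners Krt5 and Krt14 had the highest r, 0.86 (rho 0.82, adjusted permutation p = 0.0012 and 0.0028), and it was 0.77 without the 2 libraries farthest from the median of Krt5. Krt14 and Krt17 had r = 0.81 (rho 0.82, adjusted permutation p = 0.0035 and 0.0038). The shared windows named above touch this pair too, and the part of shared reads in its r was not tested. Krt5 and Krt17 had r = 0.73 (rho 0.72) and Krt5 and Krt15 r = 0.81 (rho 0.67), and both passed by either measure. Krt14 and Krt15 had r = 0.71 (rho 0.52) and passed by r only, and without the 2 farthest libraries r was 0.44.

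Trp63 went with Krt15 and less with the abundant keratins. Trp63 and Krt15 had r = 0.59 and rho = 0.76 within groups (adjusted permutation p = 0.0056 and 0.00275), and r was 0.84 without the first and second IR libraries of day 90, passage 2. Trp63 had r = 0.37 with Krt5 (rho 0.40), 0.26 with Krt17 (rho 0.25) and 0.16 with Krt14 (rho 0.16), none of which passed. With the group means left in, Trp63 passed with Krt15 (r = 0.80, rho 0.91), Krt5 (r = 0.69, rho 0.73) and Krt14 (r = 0.46, rho 0.51). With Krt17 (r = 0.32, rho 0.26) it did not pass there either. Whether these correlations differ from each other was not tested, and the values of a library share its depth and its scaling.

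**Figure D4:**
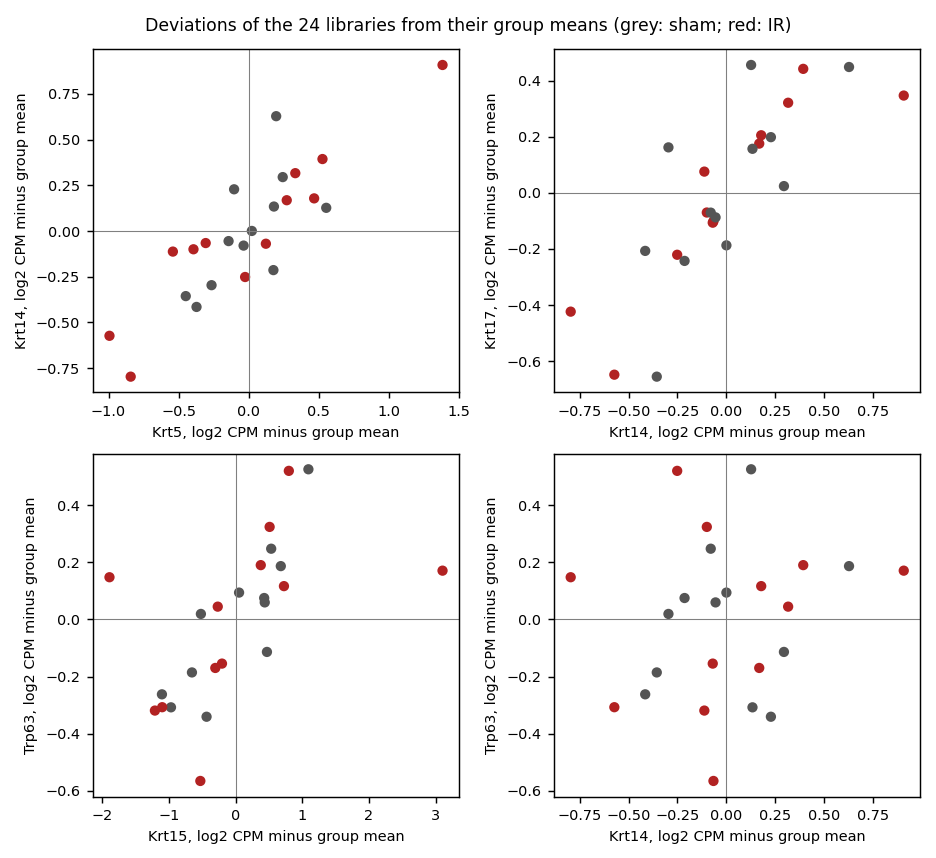
Deviation of each library's log2 CPM from its group mean for 4 pairs of genes; each point is a library, grey is sham and red is IR. Points follow a line for Krt5 with Krt14 and for Krt14 with Krt17, and the 2 points farthest out on the Krt15 axis are the first and second IR libraries of day 90, passage 2, while Krt14 and Trp63 show no line.

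The other tested genes were ranked by Pearson's r of their log2 CPM with that of each member over the 24 libraries. Predicted genes named Gm and digits, Rik genes and genes without a symbol were left out of the ranking. Most like each keratin was Map6 for Krt5 (0.94), Lgalsl for Krt14 (0.92), Ntrk2 for Krt15 (0.94) and Elovl4 for Krt17 (0.86). The next were Lgalsl and Rps25 for Krt5, Dsp and Dmkn for Krt14, Robo2 and Dsc3 for Krt15, and Cers3 and Cotl1 for Krt17. Gas1 (0.90) and Car12 (0.90) were among the 3 genes most like Trp63. Dsp encodes desmoplakin, which ties keratin filaments to desmosomes, and Dsc3 encodes a desmosomal cadherin of basal cells. Within groups the leading genes were Dbi, Cdkn3 and Serpine2 for Krt5, Atp5j2, Dsp and Rpl8 for Krt14, Rad51ap1, S100a16 and Fst for Krt15, Ralgps2, Mif and Cotl1 for Krt17, and Ufc1, Dram1 and Tnfrsf1a for Trp63. These genes were picked for their likeness, and the r values are descriptions over 24 libraries that share 8 groups.

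The other epithelial keratins moved in both directions with irradiation. Of 11 tested at day 90 and passage 2, Krt8, Krt18 and Krt7 rose, and Krt6a, Krt6b and Krt16 fell (4.92% of all tested genes passed in either direction), with a list median of -2.41 against 0.01 for all tested genes. Krt8 and Krt18, the filament pair of simple luminal cells, rose by 1.75 (SE 0.21) and 1.58 (SE 0.22), and Krt7 by 1.56 (SE 0.29). Krt6a, a keratin of activated and stratifying epithelium, fell by 2.50 (SE 0.45), from 2621 ± 933 to 463 ± 350 CPM (SD, n = 3), and Krt16, a partner of Krt6 proteins that shares windows with Krt14, fell by 4.06 (SE 1.03). Krt6b was at 59.3 to 578 CPM in sham and at 0 to 4.17 CPM in IR. As the mean over the strata, Krt8, Krt18 and Krt7 rose and Krt6a and Krt6b fell, where 643 of 10563 tested genes rose and 519 fell. At day 14 and passage 1 no gene of the list passed, and Krt6a, with the smallest p, was at 1.5 (SE 0.44, edgeR adjusted p = 0.155).

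p63 target genes were followed through lists taken from textbook knowledge of keratinocytes, chosen with earlier results of these data known. Of 12 tested basal adhesion genes none passed at day 90 and passage 2, with a median of -0.05; Col17a1, the hemidesmosomal collagen, had the smallest p at -0.53 (SE 0.17, edgeR adjusted p = 0.0775). As the mean over the strata, where 4.91% of all tested genes fell, 3 of the 12 did, namely Col17a1 by 0.43 (SE 0.09), Itga6, the integrin subunit of hemidesmosomes, by 0.56 (SE 0.11), and Dst, which links keratins to them, by 0.60 (SE 0.15). Of 12 desmosome and cornifying genes 4 fell at day 90 and passage 2, beside 1.95% of all tested genes, with a list median of -0.47. Among them were Dsg3, a desmosomal cadherin of basal cells, by 1.93 (SE 0.33), Sfn by 1.07 (SE 0.30) and Dsc3 by 1.06 (SE 0.27). As the mean over the strata 4 of the 12 fell, among them Dsg3 by 0.96, Dsc3 by 0.67 and Dsp by 0.59.

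Of 13 transcription and signalling genes 3 fell at day 90 and passage 2, against the same 1.95%, with a median of -0.75. Tfap2c, an AP-2 factor of the epidermal lineage, fell by 1.37 (SE 0.33) and Notch1, a receptor that opposes the basal state in skin, by 0.75 (SE 0.20). Sox2, a progenitor factor, fell too, with 8.51 to 139 CPM in the sham libraries and at most 0.893 CPM in IR. In the mean over the strata Trp73, the p63 paralogue, fell by 1.32 (SE 0.26), along with Tfap2c, Sox2 and Notch1, while Mdm2, a p53 target, rose by 0.54 (SE 0.12). Of 11 genes that link or modify keratin filaments, Sfn fell at day 90 and passage 2, and Dsp and Dst in the mean over the strata. Of all tested genes, 1.95% and 4.91% fell there. At day 14 in either passage and at day 90 in passage 1 no gene of the p63 target lists or of the linker list passed.

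**Figure D5:**
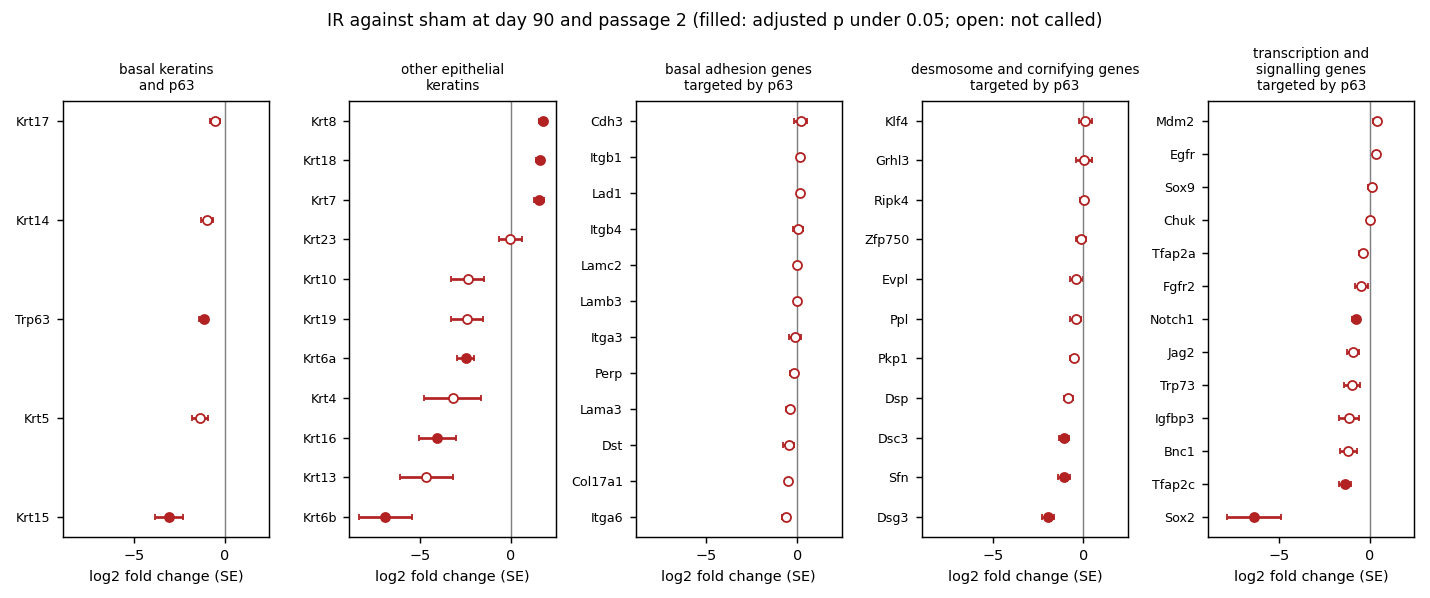
Fitted log2 fold change of IR over sham at day 90, passage 2 for the 5 genes and for the reported genes of 4 related lists, with bars of 1 SE; filled points passed at an adjusted p under 0.05. Luminal Krt8, Krt18 and Krt7 are the 3 filled points above 0, and the basal adhesion panel has no filled point.

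Markers of other cell states moved with the same comparisons. Of 5 tested luminal duct markers, Krt8, Krt18, Krt7 and Wfdc2 rose at day 90 and passage 2, where 314 of 10563 tested genes rose. There the list summed to 944 to 1174 CPM in sham and 1887 to 2536 CPM in IR. The IR sums lay above the sham sums in the other strata too. Sham and IR held 1881 to 2180 and 2313 to 2881 CPM at day 14, passage 1. In passage 2 of that day they held 600.3 to 779 and 1010 to 1902 CPM. At day 90, passage 1 they held 1760 to 1812 and 2803 to 3532 CPM. As higher, 2 of the 5 passed at day 14, passage 2 and 1 at day 90, passage 1 (2 and 3 of all tested genes). In every day and passage, 1 of the 5 had a log2 fold change below 0. Elf5, also on the list, had no count in the day 90, passage 2 IR group. The 7 myoepithelial markers summed to 24.4 to 36.5 CPM in sham and 4.33 to 8.91 CPM in IR at day 14, passage 1. At day 14, passage 2 the sums were 14.2 to 17.7 in sham and 1.99 to 9.78 CPM in IR. At day 90, passage 1 they were 6.77 to 12.7 and 4.63 to 5.67 CPM. Only at day 90, passage 2 did they overlap, at 5.63 to 9.12 and 3.34 to 14.2 CPM. Actg2 was at 0 in all groups. In the mean over the strata 1 of the 2 tested myoepithelial markers, Mylk, fell by 0.94 (SE 0.21), where 4.91% of all tested genes fell. Myoepithelial cells also express Krt5, Krt14 and Trp63, and the part of their markers and of the luminal markers in the results above was not tested. The 7 leukocyte markers summed to 8.10 to 8.73 CPM in sham and 17.8 to 51.9 CPM in IR at day 14, passage 1, and the 8 acinar markers to 40.2 to 57.1 and 27.6 to 35.1 CPM at day 90, passage 2, where Dcpp1 was among the genes that fell.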

How the data were processed

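Libraries were made with the QuantSeq 3′ kit from total RNA, per the labels' protocols. The deposited files give the authors' raw read counts for 47643 genes per library. The submitters' processing notes name bcl2fastq and GRCm39; no aligner, counter, annotation or strand setting is named in what was used here. The 5 lines that name no gene were left out; reads with no feature came to 11.5 to 26.5% and ambiguous reads to 0.259 to 0.451%. Gene symbols came from the reference table of names, which gave one for 47224 IDs.

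Counts were fitted with edgeR 4.0.16 (R 4.3.3): filterByExpr on the 8 groups, TMM scaling, 1 mean per group over all 24 libraries, quasi-likelihood F tests for 17 comparisons and Benjamini-Hochberg adjustment over the 10563 tested genes, with a gene passing at 0.05, two-sided. CPM are per TMM-scaled library; the SE is the log2 fold change divided by the root of F. Ratios had 0.5 added to each count. Correlations used log2 CPM with a prior count of 2, in Python 3.11.15 with SciPy 1.17.1. The fit was tested on simulated data. Alternatives were total-count scaling, median-of-ratios factors, DESeq2 1.42.0, no filter or a stricter one (5 CPM in 3 libraries), counts without ribosomal RNA genes, the compared groups alone, a replicate block, the Gm42418 share as a covariate, and each library left out. Replicates of a group differed beyond sampling noise, with a chi-square per degree of freedom of 2.07 to 26.7.

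Depth limits Krt15 and Trp63 most, with as few as 1 and 40 counts in a library. Named genes are the 5 members, the 3 most alike to each, and from each list up to 4 that passed per direction with the smallest p, or the 1 with the smallest p where none passed. The members and lists were chosen with earlier results of these data known. The reference genome is of another build, so coordinates are given for the RefSeq promoter only. Some genes that these rules would name are not reported here.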

Additional observations from a re-analysis of the deposited data

Results flagged for a closer look

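Krt17 was singled out because its IR and sham libraries separated in opposite directions in the 2 passages of day 14. In passage 1 the IR libraries were all higher, at a log2 difference of 0.63 (SE 0.28), and in passage 2 they were all lower, at -0.56 (SE 0.27). The test of the difference between the passages gave -1.19 (SE 0.39) and an edgeR adjusted p of 0.488, so the difference did not pass.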

How the results depend on the processing

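Number of the 5 members that passed. With no filter on low counts it was 3 and 2 for IR against sham at day 14 (passages 1 and 2), 4 and 4 at day 90, 3 and 1 for the difference by day (passages 1 and 2), 2 for the difference by passage at day 14, 4, 1 and 2 for passage 2 against 1 (sham day 14, sham day 90, IR day 14), and 1 and 3 for day 90 against 14 in IR (passages 1 and 2). DESeq2 gave 1 for IR against sham in passage 1 at each day and 1 for passage in IR at day 14, each time Trp63, and 3 at day 90, passage 2, Krt14 being added. Total-count scaling gave 1 at day 90, passage 1. With the compared groups alone the count was 1 at day 90, passage 1, 0 at day 90, passage 2, 2 for passage in sham at day 14 and 1 in IR at day 14. The Gm42418 covariate gave 1 for passage in IR at day 14. Leaving out the 3 libraries whose Gm42418 share lay over 7 points from both others of their group, chosen after seeing the data, gave 1 at day 90, passage 1, 4 at day 90, passage 2, 1 for the difference by day in passage 2, 2 for passage in sham at day 14 and 3 for day in IR at passage 2. Leaving out each library gave ranges of 0 to 1 at day 14, passage 1, 0 to 4 at day 90, passage 2, 0 to 1 for the difference by day in passage 2, 0 to 1 for passage in IR at day 14 and 0 to 3 for day in IR at passage 2. The number of all genes that passed shifted too. Over the settings other than leaving out 1 library, it was 29 to 460 at day 14, passage 1 (36 in the main fit). In passage 2 of that day it was 0 to 200 (main 2). At day 90 it was 0 to 465 in passage 1 (main 5) and 85 to 1461 in passage 2 (main 520). For passage at day 14 it was 108 to 539 in sham (main 125) and 24 to 697 in IR (main 146). A higher member count alone is thus not a result about the members. The cause of these shifts was not tested.

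The near-zero effect on Krt5 at day 14, passage 1 changed sign, to -0.0011 with the stricter filter, -0.0042 with the compared groups alone and -0.025 with the covariate, and lay between -0.17 and 0.15 with a library left out. Deviations of same-numbered replicates had r from -0.29 to 0.39 (median 0.08), and in 0 comparisons were all pairs over 0.1. With 3 libraries per group, this cannot show whether the numbers pair the libraries. The numbers are those of the titles; the file names of 4 of the 6 IR libraries of day 90 carry other numbers, and by file name IR and sham share 1 number at day 90, passage 2. With a replicate block 4 members passed at day 90, passage 2, Krt5 (-1.5) and Krt14 (-1.06) being added, and Krt14 passed in the mean effect. Of 43 further member values within 2 SE of 0, in the passage, day and difference comparisons, 19 changed sign in some setting.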
